A study of Mus musculus with 9 samples.

Results

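The genes described here encode the machinery of oxidative phosphorylation. They were chosen by name: protein-coding symbols starting with mt-, Nduf, Uqcr, Atp5, Cox4, Cox5, Cox6, Cox7 or Cox8, together with Sdha, Sdhb, Sdhc, Sdhd, Cyc1, Cycs and Chchd10. Of the 35275 gene rows with counts, 109 met this rule, 96 of them encoded in the nucleus and 13 in mitochondrial DNA. The nuclear members comprised 36 subunits of complex I, 8 Nduf-named assembly factors of complex I, 4 subunits of complex II, 9 of complex III, 20 of complex IV, 17 genes named for complex V, cytochrome c (Cycs) and Chchd10.

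Bulk RNA-seq was performed on mouse bone marrow megakaryocyte-erythroid progenitors (MEPs, gated as lineage-negative c-kit+ cells that lack CD34 and are low in FcγRII/III) sorted with HS3A8, a single-chain antibody fragment (scFv) against heparan sulfate. HS3A8-high MEPs bound the scFv above and HS3A8-low MEPs below the middle of the binding distribution, and MPB49 control MEPs were mock-sorted with an scFv without affinity for heparan sulfate. Each of the 3 groups had 3 libraries of 25000 cells each, and the labels name no genetic modification or drug. The study's methods list wild-type C57Bl/6 mice among age- and sex-matched animals, and the labels give no strain, age or sex for these libraries.

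Oxidative phosphorylation passes electrons from NADH through complex I, or from succinate through complex II, to coenzyme Q, complex III, cytochrome c and complex IV, and the proton gradient built on the way drives ATP synthase (complex V). Complex II is encoded entirely in the nucleus, whereas complexes I, III, IV and V are assembled from subunits of both genomes. Erythroid precursors depend on mitochondria for heme synthesis as well as for ATP, and discard them only late in maturation.

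Library totals ran from 11781637 to 15850037 counts, and 13936 to 15659 genes had at least 1 count. Levels are given as CPM, counts scaled to library size with TMM factors over all 9 libraries, a scale on which 3 counts, the limit that a count of 0 allows, were worth 0.176 to 0.270 CPM. Erythroid markers were detected in every library, all 11 of 11, with a summed level of 14180 to 15291 CPM in HS3A8-high, 10989 to 12572 in HS3A8-low and 12650 to 14148 in the control. The 9 megakaryocyte markers summed to 31.8 to 49.6 CPM in HS3A8-high, 203 to 418 in HS3A8-low and 146 to 232 in the control, and 1 to 3 of them were at 0 in each HS3A8-high library. Granulocyte and monocyte markers stood at 1511 CPM in HS3A8-high replicate 3 and 3516 CPM in HS3A8-low replicate 3, and at 6.92 to 216 CPM in the other libraries. In bulk RNA, fewer cells of a type and less RNA per cell cannot be told apart.

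MPB49 control replicate 1 stood apart from its group in the members themselves. Nuclear members took 4.24% of its counts, against 2.44% and 2.64% in control replicates 2 and 3. The 13 mitochondrially encoded members took 0.547%, against 0.147% and 0.219%. In this library 77 of the 95 nuclear members with any count and 12 of the 13 mitochondrially encoded members had their highest level of all 9 libraries. The excess followed transcript length: the median deviation from the other control libraries was 1.5 on the log2 scale for the 30 tested nuclear members with transcripts under 700 bases, 1.07 for the 31 of 700 to 1400 bases and 0.50 for the 28 longer ones. Among all genes the corresponding medians were 1.16, 0.69 and -0.21. Atp5e, the epsilon subunit of ATP synthase, was the most extreme member, at 805 CPM in control replicate 1 against 84.2 and 145 CPM in replicates 2 and 3, a ratio of 7.01 to their mean. At the other end, Sdha and Ndufs1, both with long transcripts, reached 0.61 of that mean. HS3A8-low replicate 3 deviated in the same manner to a lesser degree, with medians of 0.67, 0.44 and 0.22 in the 3 length classes and Atp5e at 2.78 times the mean of its partners. HS3A8-low replicate 1 deviated in the opposite direction, with medians of -0.66, -0.48 and -0.29, and had the lowest level of all 9 libraries for 75 of the 95 nuclear members. The median deviation of the tested mitochondrially encoded members was -0.84 in HS3A8-low replicate 1 and 0.89 in replicate 3. Such deviations cancel within a group. Those of HS3A8-low replicate 2 were -0.02, 0.03 and 0.06 by length class, so the equal size in replicates 1 and 3 follows from the measure. HS3A8-high replicate 1 had medians of -0.44, -0.30 and -0.18, and HS3A8-high replicate 2 of 0.40, 0.26 and 0.16. Length classes and these example genes were chosen after the values were seen. Medians of member groups, and genes whose direction turned, are therefore also given without control replicate 1 or HS3A8-low replicate 1 or 3.

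**Figure D1:**
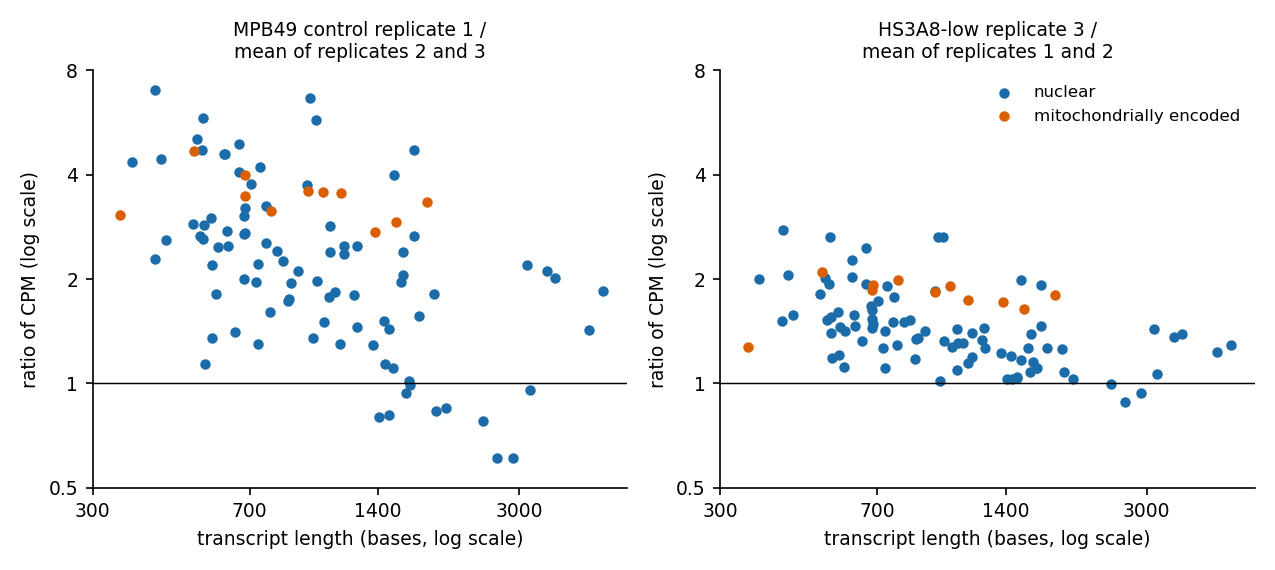
CPM of each tested member in control replicate 1 (left) and HS3A8-low replicate 3 (right), as a ratio to the mean of the other libraries of the group, against the length of its longest principal transcript, both axes logarithmic. Blue points are nuclear and orange points mitochondrially encoded members, and short nuclear members lie highest in both panels, up to 7.01 for Atp5e on the left and 2.78 on the right.

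The share of counts from members did not separate the sorted fractions. Mitochondrially encoded members took 0.189%, 0.191% and 0.244% of counts in HS3A8-high replicates 1 to 3 and 0.166%, 0.224% and 0.327% in HS3A8-low. Both sets overlapped each other and the control. For nuclear members the HS3A8-high shares of 2.29%, 2.79% and 2.53% and the HS3A8-low shares of 2.09%, 2.51% and 2.90% overlapped too.

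**Figure D2:**
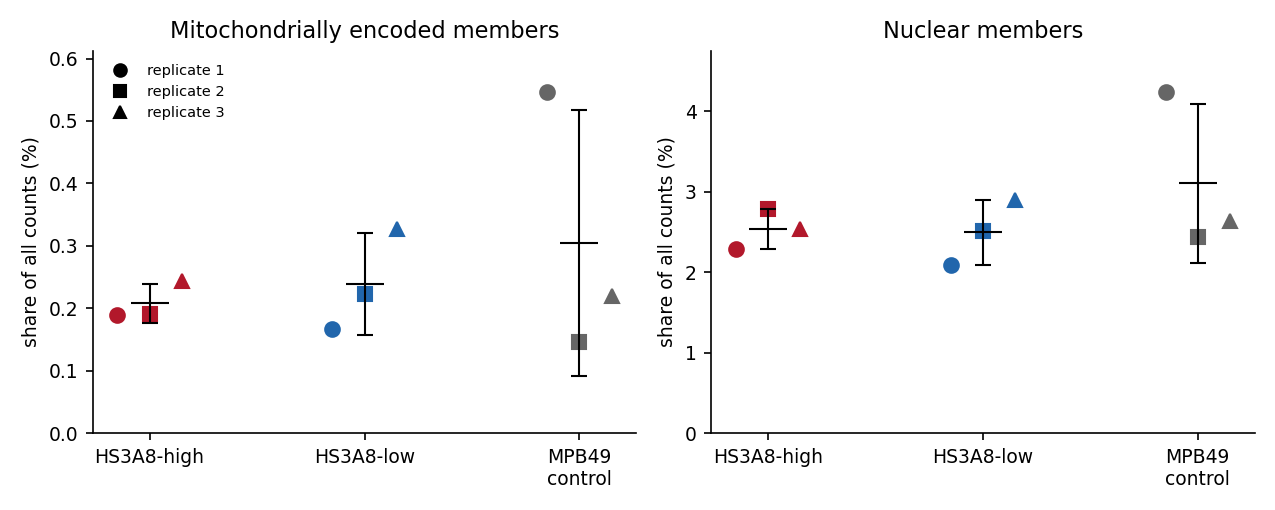
Share of all counts from the 13 mitochondrially encoded (left) and 96 nuclear members (right), in percent, with 1 point per library, shaped by replicate number, and bars for mean ± SD (n = 3). Control replicate 1 lies far above every other library, at 0.547% and 4.24%, and the other libraries of the 3 groups overlap.

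HS3A8-high and HS3A8-low MEPs were compared to learn whether expression of these genes differs with heparan sulfate modification inside the MEP gate. Of the 109 members, 100 passed the filter on low counts and 1, Chchd10, was differentially expressed by edgeR's quasi-likelihood test with Benjamini-Hochberg adjustment over all genes (adjusted p under 0.05). Over the 11791 genes tested, 3.82% were differentially expressed, 0.611% higher in HS3A8-high and 3.21% higher in HS3A8-low. No member was higher in HS3A8-low. The median log2 fold change of HS3A8-high over HS3A8-low was 0.01 for 89 nuclear members (48 above and 41 below 0), -0.21 for 11 mitochondrially encoded members and -0.03 for all genes. Both medians of the members depended on single libraries, most of all in HS3A8-low. Without HS3A8-low replicate 3 they were 0.20 for nuclear (81 above and 8 below 0) and 0.14 for mitochondrially encoded members. Without HS3A8-low replicate 1 they were -0.12 (26 above and 64 below 0) and -0.41. The median of all genes was -0.01 in both cases. The nuclear median was also 0.10 without HS3A8-high replicate 1 and turned to -0.08 without HS3A8-high replicate 2.

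Chchd10 encodes a small protein of the mitochondrial intermembrane space that is linked to cristae organization and to complex IV, and is not itself a subunit of a complex. The gene (ENSMUSG00000049422) lies at chr10:75933130-75937747 on the plus strand of mm10. Its level was 98.2, 112 and 103 CPM in HS3A8-high, 62.2, 74.2 and 70.6 CPM in HS3A8-low and 71.6, 85.7 and 90.8 CPM in the control. Every HS3A8-high library was above every other library, and the HS3A8-low and control libraries overlapped. The level was 1.5-fold higher in HS3A8-high than in HS3A8-low (log2 fold change 0.59, SE 0.10, edgeR adjusted p = 0.0307). With the replicate number as a block the log2 fold change was 0.59 with an adjusted p of 0.0121. When any 1 of the 6 libraries was left out, the log2 fold change stayed between 0.54 and 0.66 and the adjusted p rose to between 0.0535 and 0.129. In these fits the number of all genes called higher in HS3A8-high fell from 72 to between 0 and 30. The 7 other genes of the Chchd family listed for comparison (Chchd1 to Chchd7) had log2 fold changes from -0.45 to 0.16, and 0 of them were differentially expressed, also with the block. Exons of the opposite strand (Gm867, Mmp11) cover 11.4% of the exonic bases of Chchd10, and whether counting used the strand is not given in the sources used here.

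The promoter of Chchd10 is shown because it belongs to the member that was differentially expressed, beside those of Uqcrc1, a core subunit of complex III, and Cycs, which hold matches to NRF1, a known activator of respiratory chain genes. Windows run from 250 bases before to 50 bases after the start site (RefSeq, GRCm38.p6), in the direction of transcription, with matches to the strings listed after the sequences in capitals. They lie at chr10:75932880-75933179 (plus strand), chr9:108936398-108936697 (plus strand) and chr6:50566520-50566819 (minus strand).
Chchd10: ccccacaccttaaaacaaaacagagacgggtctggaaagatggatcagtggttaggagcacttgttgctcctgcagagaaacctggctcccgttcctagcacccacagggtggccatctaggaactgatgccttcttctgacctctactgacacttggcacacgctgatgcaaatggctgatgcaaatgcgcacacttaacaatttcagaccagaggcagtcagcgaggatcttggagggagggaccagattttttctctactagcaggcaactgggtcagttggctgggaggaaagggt
Uqcrc1: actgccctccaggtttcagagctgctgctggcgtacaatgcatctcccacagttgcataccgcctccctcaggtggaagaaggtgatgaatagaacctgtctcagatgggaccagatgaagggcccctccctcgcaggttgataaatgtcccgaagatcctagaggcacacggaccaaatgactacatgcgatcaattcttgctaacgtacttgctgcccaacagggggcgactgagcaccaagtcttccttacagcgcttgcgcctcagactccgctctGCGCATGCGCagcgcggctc
Cycs: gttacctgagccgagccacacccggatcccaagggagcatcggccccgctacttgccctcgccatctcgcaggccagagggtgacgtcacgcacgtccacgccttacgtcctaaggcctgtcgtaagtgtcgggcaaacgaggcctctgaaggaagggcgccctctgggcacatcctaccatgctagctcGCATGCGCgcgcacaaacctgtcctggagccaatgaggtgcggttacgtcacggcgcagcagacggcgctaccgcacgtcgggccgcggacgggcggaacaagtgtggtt
Both strands were searched for the core of the NRF1 motif (GCATGCGC), an ETS string (CCGGAAGT), a GATA string (AGATAA) and a TATA string (TATAAA). The window of Chchd10 held none of these letters. In Uqcrc1 the NRF1 string lay on both strands, overlapping itself, at 30 to 37 and 32 to 39 bases downstream of the start site. In Cycs it lay at -60 to -53. RefSeq windows were matched for 76 of the 96 nuclear members, with 81 windows in all. The NRF1 string occurred in 13 of them (16%) and in 2.71% of all 32851 windows of the genome. The ETS string occurred in 6.17% against 3.89%, the GATA string in 7.41% against 11.2% and the TATA string in 9.88% against 13.6%. A match describes the letters of a window and is not evidence of binding.

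Complex I oxidizes NADH. Ndufs1, the largest subunit of its electron-accepting arm, was at 299, 323 and 317 CPM in HS3A8-high and 254, 276 and 233 CPM in HS3A8-low, with no overlap. Its log2 fold change was 0.29 (SE 0.08), which did not pass without the block (edgeR adjusted p = 0.112) and passed with it (adjusted p = 0.0498). Ndufaf1, an assembly factor of complex I, was at 85.7, 83.1 and 81.1 CPM in HS3A8-high and 59.6, 67.0 and 65.4 CPM in HS3A8-low, also without overlap. It had a log2 fold change of 0.37 (SE 0.09, edgeR adjusted p = 0.0735, and 0.0486 with the block). The other core subunits did not pass either test: log2 fold changes were 0.16 for Ndufv1, which binds NADH, 0.20 for Ndufs7, an iron-sulfur subunit next to the coenzyme Q site, and 0.10 for Ndufa9. Over all 36 nuclear subunits the median was 0.02, with 20 higher and 16 lower in HS3A8-high, and it was 0.20 without HS3A8-low replicate 3 and -0.13 without replicate 1.

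Complex II, succinate dehydrogenase, is shared with the citric acid cycle. All 4 of its subunits had log2 fold changes above 0, from 0.17 for Sdhc to 0.23 for Sdha, with a median of 0.19. Sdha, the flavoprotein that oxidizes succinate, was at 908, 947 and 927 CPM in HS3A8-high and 773, 833 and 753 CPM in HS3A8-low. These groups did not overlap, and the difference passed only with the block (log2 fold change 0.23, SE 0.06, edgeR adjusted p = 0.0958, and 0.0471 with the block). In the control Sdha was at 970 and 902 CPM in replicates 2 and 3 and at 570 CPM in replicate 1. Sdhc, a membrane anchor, was at 242, 275 and 266 CPM in HS3A8-high and 215, 236 and 240 CPM in HS3A8-low. Its groups did not overlap, though the test was not passed (edgeR adjusted p = 0.294). For Sdhb, the iron-sulfur subunit, and Sdhd, the other anchor, the groups overlapped, and log2 fold changes were 0.18 and 0.19. Leaving out HS3A8-low replicate 3 or replicate 1 gave medians of 0.23 and 0.13 for the complex, again with all 4 above 0.

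Complex III passes electrons to cytochrome c. Cyc1, its cytochrome c1, was at 602, 726 and 642 CPM in HS3A8-high and 441, 551 and 578 CPM in HS3A8-low, without overlap. The log2 fold change of Cyc1 was 0.32 (SE 0.11, edgeR adjusted p = 0.181, and 0.0492 with the block). Uqcrc1 was at 1018, 1152 and 1092 CPM against 804, 968 and 985 CPM, also without overlap, and passed neither test (log2 fold change 0.23, edgeR adjusted p = 0.196, and 0.0573 with the block). Uqcrfs1, the Rieske iron-sulfur protein, had a log2 fold change of 0.20 with overlapping groups. The 9 nuclear subunits had a median of 0.05, with 5 above and 4 below 0. This median was 0.29 without HS3A8-low replicate 3 and -0.07 without replicate 1. Cycs, the soluble electron carrier, was at 258, 311 and 292 CPM in HS3A8-high and 215, 249 and 332 CPM in HS3A8-low, and the groups overlapped (log2 fold change 0.10, SE 0.16). Without HS3A8-low replicate 3 the log2 fold change of Cycs was 0.30 (edgeR adjusted p = 0.164).

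Complex IV reduces oxygen, and none of its nuclear subunits separated the fractions. The 13 tested had a median of -0.08 (5 above and 8 below 0), and each overlapped between the groups. Cox4i1, the ubiquitous isoform of subunit 4, was at 331, 466 and 408 CPM in HS3A8-high and 291, 409 and 621 CPM in HS3A8-low. Cox7c, one of the small subunits, was at 140, 219 and 190 CPM against 134, 206 and 329 CPM. Both had their highest value of these libraries in HS3A8-low replicate 3, and their log2 fold changes, -0.14 (SE 0.26) and -0.29 (SE 0.32), turned to 0.19 and 0.10 without that library. Cox5a and Cox6a1 had log2 fold changes of 0.03 and 0.12. For Cox5a it was 0.19 without HS3A8-low replicate 3 and -0.13 without replicate 1. The median of the complex likewise turned to 0.18 without replicate 3 and was -0.27 without replicate 1.

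Of the isoforms known for restricted tissue expression, Cox6b2 was well expressed. This isoform is known from testis, and its level was 108, 135 and 117 CPM in HS3A8-high, 94.7, 124 and 122 CPM in HS3A8-low and 207, 112 and 116 CPM in the control. Sorted fractions overlapped (log2 fold change 0.07, SE 0.13, and -0.02 without HS3A8-low replicate 1). The other tissue-restricted isoforms were low. Cox6a2 was detected in 8 of 9 libraries, with 45 counts (3.82 CPM) in HS3A8-low replicate 3, 24 in control replicate 1, 15 in HS3A8-high replicate 3 and 0 to 6 in the others. Cox7a1 reached at most 0.720 CPM and Cox8b had 1 count in all. Cox4i2 had counts in 3 libraries and Cox8c and Ndufa4l2 in 1 library each. Cox7b2 had 0 counts in each library.

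Complex V makes ATP. Atp5b, its catalytic beta subunit, was at 3268, 3867 and 3656 CPM in HS3A8-high and 2753, 3361 and 3302 CPM in HS3A8-low. The groups overlapped, HS3A8-low replicate 2 lying above HS3A8-high replicate 1, while within each replicate number HS3A8-high was the higher (log2 fold change 0.19, SE 0.08, edgeR adjusted p = 0.282, and 0.0490 with the block). Atp5a1, the alpha subunit, was at 1748, 1986 and 1884 CPM against 1552, 1746 and 1648 CPM, without overlap (log2 fold change 0.17, edgeR adjusted p = 0.179, and 0.0616 with the block). Atp5c1, the gamma subunit, had a log2 fold change of -0.08 (SE 0.16) with overlapping groups, which turned to 0.11 without HS3A8-low replicate 3. At the low end of all members, Atp5e was at 61.3, 135 and 109 CPM in HS3A8-high and 69.3, 124 and 269 CPM in HS3A8-low, and its log2 fold change of -0.61 had an SE of 0.50 and turned to 0.07 without HS3A8-low replicate 3. The 17 nuclear members of complex V had a median of -0.07, which was 0.16 without HS3A8-low replicate 3 and -0.16 without replicate 1.

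**Figure D3:**
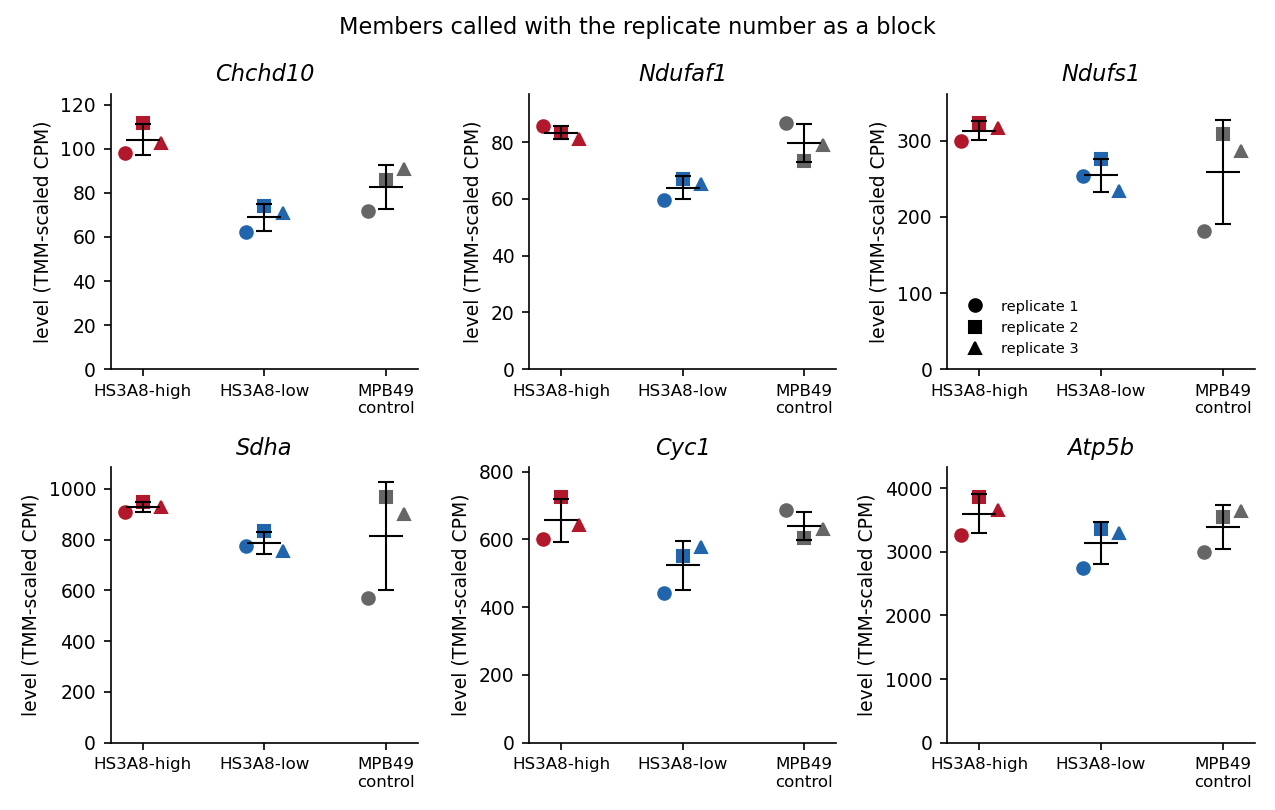
CPM per library of the 6 members differentially expressed with the replicate number as a block, in HS3A8-high, HS3A8-low and control MEPs, with points shaped by replicate number and bars for mean ± SD (n = 3). HS3A8-high lies above HS3A8-low in each replicate number for all 6, these groups overlap only for Atp5b, and control replicate 1 is lowest for Sdha at 570 CPM and Ndufs1 at 182 CPM. The 6 were chosen by the blocked test, so their order within replicate numbers is no separate evidence (25.7% of all genes were higher in 3 of 3 pairs).

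Adding the block brought the count from 1 to 6 members, each higher in HS3A8-high (Chchd10, Ndufaf1, Sdha, Ndufs1, Cyc1 and Atp5b), or 6 of 100 tested. Over all genes the block gave 11.6% differentially expressed, 3.32% higher in HS3A8-high and 8.27% higher in HS3A8-low. At an unadjusted p under 0.05, 7 members lay above 0 and 0 below, where all genes gave 7.16% and 12.7%. The count of 7 rested on single libraries: it was 18, all higher in HS3A8-high, without HS3A8-low replicate 3 (7.41% of all genes) and 4 without HS3A8-high replicate 2 (4.37%). The groups did not overlap for 8 members higher in HS3A8-high and 0 higher in HS3A8-low, where all genes gave 12.6% and 15.1%. With all 6 libraries the share of members higher in HS3A8-high by these 2 measures was thus near or below that of all genes. Without HS3A8-low replicate 3 the groups did not overlap for 15 members, against 16.9% of all genes, and without HS3A8-low replicate 1 for 8 higher and 8 lower, against 19.0% and 22.4%. Within replicate numbers, 15 members were higher in HS3A8-high in 3 of 3 pairs and 6 were lower in 3 of 3, whereas 25.7% and 27.6% of all genes were.

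These counts came from members with long transcripts. All 7 members at an unadjusted p under 0.05 and all 8 without overlap had transcripts of over 1400 bases, a class of 28 nuclear members with a median log2 fold change of 0.11 (22 above and 6 below 0). Their 8 without overlap made up 28.6% of the class, against 14.1% of all genes of that length. The length classes were chosen after the values were seen, so these shares describe the data and test nothing. Shares of all genes by length were not computed without single libraries. Most of all genes counted were long too. Of those higher in HS3A8-high, 794 of 844 at an unadjusted p under 0.05 had over 1400 bases. So did 1385 of the 1482 without overlap, and 9817 of the 11791 genes tested. Without HS3A8-low replicate 3, 13 of the 18 members at an unadjusted p under 0.05 were of this length and the other 5 had 700 to 1400 bases. Members under 700 bases had a median of -0.12 (8 above and 22 below 0), and 1 of 30 was lower in HS3A8-high in 3 of 3 pairs. That median turned to 0.17 without HS3A8-low replicate 3 (29 above and 1 below 0) and was -0.28 without replicate 1, while that of the long class was 0.22 and 0.05. All genes showed the same order of length classes, with medians of -0.14, -0.09 and -0.01 from short to long. The trend of each library with GC content and transcript length was also removed, an alternative chosen after seeing the data. It gave 7 differentially expressed members, and 14 with the block as well, each higher in HS3A8-high. Over 11740 genes, 371 were called higher in HS3A8-high by this fit, and 782 with the block as well. Without the block, 21 members higher and 1 lower had an unadjusted p under 0.05, where 10.8% of all genes were higher. The part of library preparation or RNA quality in these differences was not tested.

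**Figure D4:**
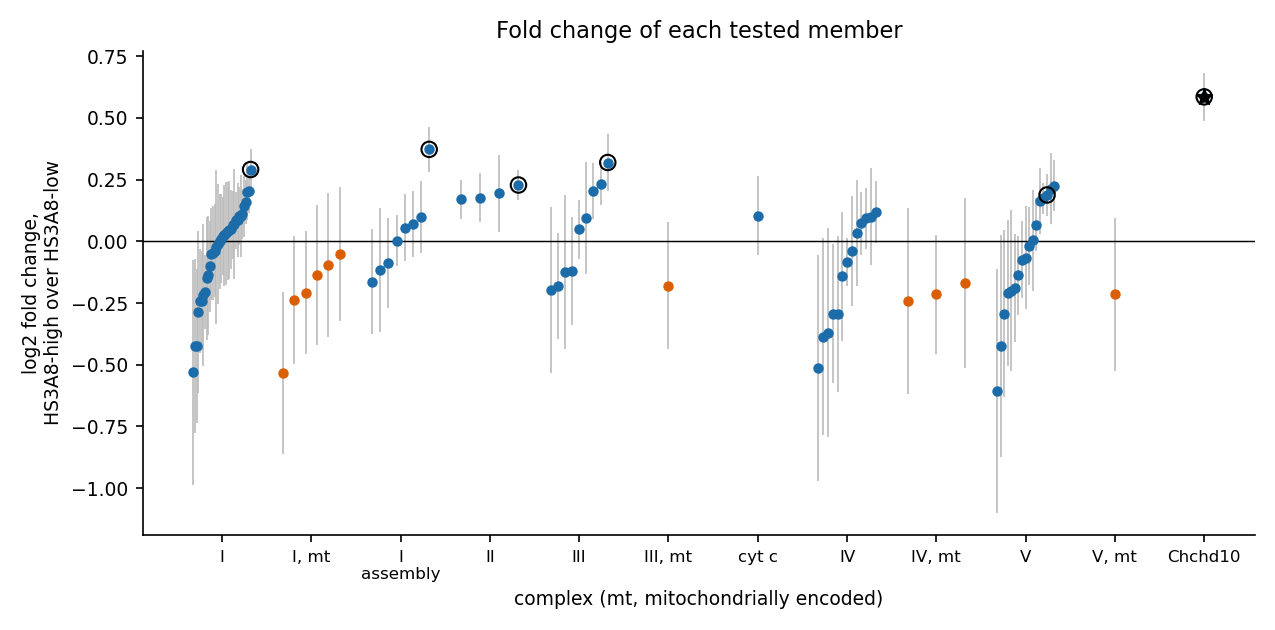
Log2 fold change of HS3A8-high over HS3A8-low (edgeR) for each of the 100 tested members, ordered by value within complex and genome, with bars for ± 1 SE. Blue points are nuclear and orange points mitochondrially encoded members, a star marks Chchd10 at 0.59, circles mark the 6 members called with the block, and the 11 orange points all lie below 0.

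The 11 tested mitochondrially encoded members each had a log2 fold change below 0, ranging from -0.53 (mt-Nd6) to -0.05 (mt-Nd1), and none passed the test (smallest edgeR adjusted p = 0.431) or separated the groups. mt-Nd1, a core subunit of complex I, was at 433, 479 and 599 CPM in HS3A8-high and 340, 473 and 745 CPM in HS3A8-low. mt-Cytb, the cytochrome b of complex III, was at 483, 525 and 662 CPM against 416, 591 and 874 CPM. mt-Co1, the catalytic subunit of complex IV, was at 469, 453 and 602 CPM against 396, 572 and 792 CPM. In each of these the HS3A8-low values spanned those of HS3A8-high. Leaving out HS3A8-low replicate 3 turned the median of the 11 tested genes from -0.21 to 0.14. All 13 are transcribed from a single circular genome and in control replicate 1 each of the 11 tested lay 2.73 to 4.68 times above the mean of its partners, so they are not independent readings.

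The mitochondrially encoded genes differed widely in level. Per kilobase, mt-Nd1 and mt-Cytb were highest, at means of 625 and 613 CPM per kb over the 9 libraries, followed by mt-Co1 at 394, mt-Nd2 at 171, mt-Nd5 at 125, mt-Nd4 at 108 and mt-Nd6 at 61.0. mt-Co3, mt-Atp6, mt-Co2 and mt-Nd3 had only 29.7, 24.3, 16.3 and 16.3 CPM per kb. mt-Nd4l had 0.651 and mt-Atp8 0.333 CPM per kb, and these last 2 fell below the filter. Of these 6 low genes, 5 have near-identical copies in the nucleus: 98.0% to 100% of the 50-base stretches of mt-Co3, mt-Atp6, mt-Co2, mt-Nd3 and mt-Nd4l also occur in a transcript of another gene (such as Gm28437, Gm10925 and Gm28661), against 0% for mt-Nd1, mt-Cytb and mt-Nd6. mt-Nd4 and mt-Co1 shared 62.2% and 51.1%, and mt-Atp8 shared 0%, its exons overlapping those of mt-Atp6 by 21.1%. How the counting treated reads that match several places is not given in the sources used here, so these levels are uncertain. Across libraries the 7 copies listed for comparison had 545 to 1725 counts in all, and adding them moved the mitochondrially encoded share of HS3A8-low replicate 3 from 0.327% to 0.335%. Reads dropped for matching several places would be missing from both shares, so this change does not show how many were lost.

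**Figure D5:**
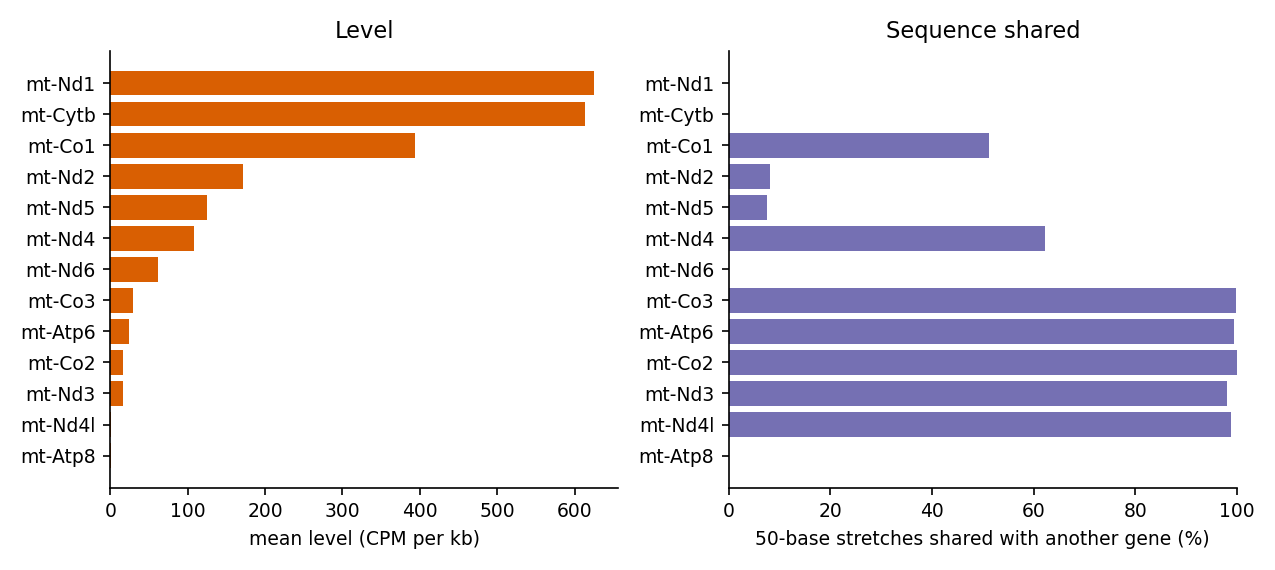
Mean level over 9 libraries in CPM per kb (left) and percent of 50-base stretches found in a transcript of another gene (right) for the 13 mitochondrially encoded members. The 5 members sharing 98.0% or more are at 29.7 CPM per kb or less, and mt-Atp8 is low at 0.333 with 0% shared.

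Among nuclear members, levels per kilobase of the longest principal transcript varied widely. Atp5b was highest at 1762 CPM per kb, followed by Uqcr11, a small subunit of complex III, at 974 and Cox6a1 at 897. Medians were 370 for complex V, 354 for complex IV, 399 for complex III, 322 for complex II, 177 for complex I and 38.0 for the assembly factors of complex I. Chchd10 was at 57.3 CPM per kb. Where the longest transcript is rarely used, the level per kilobase is understated. Of the 96 nuclear members, 31 share over 10% of their 50-base stretches with another gene, and their levels are uncertain to that degree.

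The comparison with the mock-sorted control asks how each fraction stands to unselected MEPs, and both comparisons used the same 3 control libraries. Between HS3A8-high and the control, 0 of 100 members were differentially expressed and 0 had an unadjusted p under 0.05, where 0.0174% and 4.89% of 11486 genes did. DESeq2 and limma-voom also gave 0 members. The count at an unadjusted p moved with single libraries and settings. Without control replicate 2, 34 of 101 members were lower in HS3A8-high (7.83% of all genes). Without control replicate 3 there were 4 members, where 610 of 11852 genes passed in either direction. DESeq2 gave 9 of 107 (4.52% of all genes) and the fit without a count filter 5 of 107 (4.06%). The members counted in these fits were all lower in HS3A8-high. Between HS3A8-low and the control, 0 of 100 were differentially expressed and 1 (Ndufaf1, log2 fold change -0.36) had an unadjusted p under 0.05, where 0% and 5.67% of 11878 genes did, and DESeq2 and limma-voom again gave 0 differentially expressed. Without control replicate 2 the count at an unadjusted p was 9 of 101, all lower in HS3A8-low, where 1.42% of all genes were. Median log2 fold changes against the control were -0.43 and -0.53 for nuclear members and -0.63 and -0.54 for mitochondrially encoded members, the HS3A8-high value being given first. Without control replicate 1 they were 0.02 and -0.0061 for nuclear members and 0.16 and 0.32 for mitochondrially encoded members. Against the control Chchd10 had log2 fold changes of 0.33 (SE 0.15) in HS3A8-high and -0.30 (SE 0.15) in HS3A8-low, and neither passed the test (edgeR adjusted p = 0.733 and 0.840). Without control replicate 1 these were 0.24 and -0.36.

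Other genes of mitochondrial metabolism were counted in the same test of HS3A8-high against HS3A8-low. The shares over all genes to read beside these counts are 0.611% higher and 3.21% lower in HS3A8-high by adjusted p, 7.16% and 12.7% by unadjusted p, and 3.32% and 8.27% with the block. A log2 fold change above 0 was found for 46.6% of all genes and 48.6% of those with transcripts of over 1400 bases. Values of these lists without single libraries are not given here. Of 13 citric acid cycle genes, 1 was differentially expressed, Cs, the citrate synthase (log2 fold change 0.34, SE 0.06, edgeR adjusted p = 0.0319), and 3 were with the block, Ogdh and Mdh2 besides Cs. All 13 had log2 fold changes above 0, with a median of 0.18. Of 25 genes of mitochondrial DNA maintenance and expression, 1 was differentially expressed, Elac2, which trims the ends of mitochondrial tRNAs (log2 fold change 0.50, edgeR adjusted p = 0.0414), and 3 were with the block. Of 76 proteins of the mitochondrial ribosome tested, 0 were differentially expressed without the block (6 at an unadjusted p under 0.05, all higher, a share near that of all genes) and 2 with it, and 54 of them had log2 fold changes above 0. Assembly factors outside the name rule gave 0 of 39 (6 higher and 1 lower at an unadjusted p under 0.05) and 1 with the block, biogenesis regulators 0 of 8 (1 at an unadjusted p under 0.05) and 1 with it, and coenzyme Q synthesis 0 of 13 (3 higher and 1 lower at an unadjusted p under 0.05) and 3 with it, 2 higher and 1 lower in HS3A8-high.

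Marker lists of most cell types, but not all, moved with the same contrast. Of 11 erythroid markers, 7 were higher in HS3A8-high without overlap, where 12.6% of all genes were. The other 4 overlapped and had log2 fold changes below 0, the lowest being -0.48. Megakaryocyte markers did not overlap for 7 of 8 tested, T and NK cell markers for 6 of 8, and stem and multipotent progenitor markers for 4 of 5, all lower in HS3A8-high, where 15.1% of all genes were. Basophil and mast cell markers did not overlap for 3 of 3 tested and B-lymphoid markers for 1 of 2, also lower in HS3A8-high. Granulocyte and monocyte markers did not overlap for 0 of 9 tested, though all 9 had log2 fold changes below 0. The filter used the libraries compared, so a marker near 0 in HS3A8-high could be tested through its level in HS3A8-low alone. The direction of such a marker was then largely fixed by the filter. Against the control, 4 T and NK cell markers were tested in HS3A8-high and 8 in HS3A8-low. Counts of markers lower in HS3A8-high are therefore descriptive. The part of cell composition in the differences of Chchd10 and the other members was not tested.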

How the data were processed

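RNA was sequenced from 9 libraries of 25000 sorted MEPs. Per the submitters' processing notes, reads were aligned to mm10 with STAR 2.5 and counted with HTSeq 0.6.1. The authors deposited raw counts per gene, not normalized, with 1 column per library and none pooled. The annotation release, the strand setting and the handling of reads with several matches are not given in the sources used here. Gene identifiers were matched to symbols, coordinates and transcripts of GENCODE M21 on GRCm38, the build mm10 names (34490 of 35275 matched).

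The members and the lists for comparison were chosen with earlier results of these data known. Counts were tested with the quasi-likelihood test of edgeR 4.0.16 (R 4.3.3) with TMM and filterByExpr, separately for each pair of groups, with Benjamini-Hochberg adjustment over all genes that passed and a threshold of 0.05. SE is the absolute log2 fold change over the square root of F. Values per group overlap or not on the CPM scale over all libraries. Alternatives were DESeq2 1.42.0, its size factors, limma-voom 3.58.1 with sample weights, a fit without the count filter, a mean of 10 or more counts, 1 fit of all 9 libraries, the replicate number as a block, GC and length trends removed (splines of 5 degrees of freedom), library sizes without mitochondrial genes, and each library left out. Scripts were tested on simulated counts.

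As a check of pairing, each library's deviations from its group mean were correlated with those of the other fraction. Equal replicate numbers gave positive r (from 0.325 to 0.509 over 12108 genes) and different numbers gave less (-0.469 to 0.122). Deviations from a group mean cancel within the group, so the lower r between different numbers follows in part from the positive ones. Whether a shared mouse or a shared trend with transcript length gave these r was not tested. The main test did not pair libraries, and the replicate number was a block only in alternative fits. The labels do not say what the numbers mark. The study describes the HS3A8-low and HS3A8-high libraries as coming from 3 separate mice. The sources used here do not state this for the control libraries, nor which libraries share a mouse. Depth limits cover counting error only.

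Genes named are the differentially expressed members, the 13 mitochondrially encoded genes, core subunits of each complex, tissue-restricted isoforms, Chchd10, the members of highest and lowest level, and those called only with the block. Atp5e was named after its values were seen.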

Additional observations from a re-analysis of the deposited data

How the results depend on the processing

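Between HS3A8-high and HS3A8-low, the 1 member called became 4 with DESeq2 and 3 with limma-voom. It became 0 with all 9 libraries in 1 fit and 6 with the replicate block. With GC and length trends removed (an alternative chosen after seeing the data) it became 7, and 14 with the replicate block as well. Genes called higher in HS3A8-high moved too, from 72 of 11791 to 303 of 18095 with DESeq2 and 427 of 11791 with limma-voom. They were 6 of 12108 with all 9 libraries in 1 fit and 392 of 11791 with the block. With trends removed they were 371 of 11740, and 782 with the block as well. When any 1 library was left out, 0 members and 0 to 30 genes were called higher in HS3A8-high. Each member called in any of these fits was higher in HS3A8-high. Chchd10 was called under 9 of 16 alternatives, with adjusted p from 0.000112 to 0.129. DESeq2 size factors, the fit without a count filter, a mean of 10 or more counts and library sizes without mitochondrial genes gave 1 member. Against the control, 0 members were called under every alternative run, the replicate block included, and same-numbered libraries did not deviate together there (r from -0.346 to 0.032).

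The counts of members at an unadjusted p under 0.05 ranged from 4 to 18 between HS3A8-high and HS3A8-low, from 0 to 34 between HS3A8-high and the control and from 0 to 9 between HS3A8-low and the control when 1 library was left out. Counts over all genes, in either direction, moved as well. In the same order they ranged from 1790 of 12421 to 2554 of 12058, from 368 of 11785 to 1076 of 11695 and from 394 of 12307 to 1142 of 12214. The extremes did not always come from the same library left out.

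Leaving out 1 library at a time, the median log2 fold change of mitochondrially encoded members ranged from -0.41 to 0.14 between HS3A8-high and HS3A8-low, from -0.98 to 0.16 between HS3A8-high and the control and from -0.91 to 0.32 between HS3A8-low and the control. For nuclear members the ranges were -0.12 to 0.20, -0.66 to 0.02 and -0.72 to -0.0061. The highest values came without HS3A8-low replicate 3 in the first comparison and without control replicate 1 in the others, and the lowest without HS3A8-low replicate 1 and control replicate 2. With the replicate block, medians between HS3A8-high and HS3A8-low were 0.04 for nuclear and -0.15 for mitochondrially encoded members. With 3 libraries a group, differences of members with SE near 0.5, such as Atp5e, cannot be resolved.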
